A study of Mus musculus with 7 samples.

Results

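The genes described here are 10 members of the p53 pathway: *Trp53*, which encodes p53 itself, its inhibitors *Mdm2* and *Mdm4*, and the p53 target genes *Ccng1*, *Sesn2*, *Phlda3*, *Gdf15*, *Bax*, *Bbc3* and *Pmaip1*. They were taken by name from the GENCODE annotation of the mouse genome GRCm38, where they are 10 of 21938 protein-coding genes. The rule uses no measured value, but the genes and the further lists were chosen with earlier results of these data known. Their counts beside the shares of all genes are therefore descriptive. For each gene, H3K27-Ac peaks were collected within 1 kb of every annotated transcription start (promoter peaks), elsewhere in the gene (body peaks), and outside the gene with an edge up to 50 kb from its nearest start (distal peaks).

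H3K27-Ac is a histone mark of active promoters and enhancers, and ChIP-seq maps where in the genome an antibody to the mark enriches chromatin. The peak lists come from 3 cell lines, each selected in soft agar from a different skin tumour of *Cdkn2ab*-/- mice on an FVB/129P2 backcross. The germline deletion, made with Act-Cre, removes p15Ink4b, p16Ink4a and p19Arf, so it is shared by every sample, and there is no *Cdkn2ab* wild-type sample to compare with. Each list stands for 1 selected clone of 1 tumour, called clones 1, 2 and 3 after the labels. Clones 1 and 2 have 1 H3K27-Ac library each, and the 2 libraries of clone 3 were pooled before peaks were called, so every value below is a single value per clone and the spread is that between 3 clones.

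The lists hold 29187, 49608 and 29280 peaks for clones 1, 2 and 3, of which 29182, 49587 and 29277, on assembled chromosomes, were used. The number of ChIP reads at each summit was recovered from the deposited fold enrichment and p-value. Its median was 37, 34 and 53, and the weakest listed peaks had 13, 12 and 25 reads, which sets what the lists can show. The libraries were estimated at 13.3 M, 13.7 M and 35.8 M ChIP reads, and reads are therefore compared within a clone only. Clone 2 has the most peaks, and by their names the lists of clones 1 and 2, unlike that of clone 3, underwent a filter against allelic mapping bias. In cultures of many cells, a smaller share of cells with the mark and less of it per cell cannot be told apart. The tumours are epithelial, but of 8 markers of epithelial skin and hair follicle cells only *Cdh3* and *Sox9* were marked at the promoter in each of the 3 clones. *Krt14* had a promoter peak in clone 1 alone (42 reads) and *Krt15* in clone 2 alone (39 reads), whereas *Krt5*, *Trp63*, *Cdh1* and *Lef1* had none in any. Of 5 fibroblast markers, all had a promoter peak in clones 1 and 2 and 2 of them, *Pdgfrb* and *Twist1*, also in clone 3. No marker of 3 for endothelial cells had one, and of 4 immune markers only *Spi1* had one, in clone 2. Of 3 melanocyte markers, *Mitf* was marked in each clone and *Dct* and *Sox10* in none.

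p19Arf binds *Mdm2*, an E3 ubiquitin ligase that marks p53 for degradation, so cells without p19Arf lose one route by which oncogenic stress stabilises p53. *Mdm4* is a relative of *Mdm2* that blocks the transactivation domain of p53. Stabilised p53 binds its response elements and activates genes that halt the cell cycle or start apoptosis, and *Mdm2* is one of these genes, which closes a feedback loop. In skin, p53 guards keratinocytes against ultraviolet damage, and its loss is frequent in squamous carcinoma. H3K27-Ac at a gene shows that its regulatory DNA is in an active state. It measures neither the amount of p53 protein nor its binding.

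Because p53 acts through response elements in DNA, stretches of the reference sequence at these genes are shown first, all read from RefSeq's copy of GRCm38 on the strand of the gene. The p53 response element is a pair of 10-base copies of the p53 consensus. It was searched on both strands with 0 or 1 base between the copies, at most 3 mismatches in 20 bases and the 4-base core of at least 1 copy intact. Capitals mark a match, overlapping matches are capitalised as 1 stretch, and positions relative to a start are those of the centre of the match. The following 2 stretches come from *Mdm2*, the gene with the strongest promoter peak. The first, at chr10:117710032-117710159 on the minus strand, lies in intron 1 of the coding transcripts inside the promoter peak of all 3 clones. The second, at chr10:117717676-117717805 on the minus strand, lies upstream of the gene inside a distal peak of all 3 clones.
Mdm2 intron 1: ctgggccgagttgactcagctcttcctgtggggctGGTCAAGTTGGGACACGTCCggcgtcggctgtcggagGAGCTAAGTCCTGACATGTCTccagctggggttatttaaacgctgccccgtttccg
Mdm2 upstream: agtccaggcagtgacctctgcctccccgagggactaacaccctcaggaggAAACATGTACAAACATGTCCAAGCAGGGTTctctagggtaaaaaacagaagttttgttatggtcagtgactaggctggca

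The next 3 stretches lie just upstream of a start of a target gene, *Ccng1* at chr11:40755412-40755531 (minus strand), *Bax* at chr7:45467029-45467160 (minus strand) and *Bbc3* at chr7:16309436-16309555 (plus strand). They are shown because the peaks reach over the *Bbc3* element in all 3 clones but over those of *Ccng1* and *Bax* only in clone 2.
Ccng1 upstream: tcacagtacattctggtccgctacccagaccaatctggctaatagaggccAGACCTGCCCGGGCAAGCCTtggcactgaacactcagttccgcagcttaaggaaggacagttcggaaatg
Bax upstream: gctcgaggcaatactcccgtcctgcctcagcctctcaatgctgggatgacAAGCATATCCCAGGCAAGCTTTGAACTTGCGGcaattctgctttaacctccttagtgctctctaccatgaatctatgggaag
Bbc3 upstream: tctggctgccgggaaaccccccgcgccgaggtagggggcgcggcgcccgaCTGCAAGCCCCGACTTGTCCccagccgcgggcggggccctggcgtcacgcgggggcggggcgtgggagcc

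The question asked of the lists was which of these genes carry the mark in clones that lack p19Arf. A promoter peak was found for 9 of the 10 genes in clone 1, where 49.8% of all protein-coding genes had one, and for 10 of 10 in clones 2 and 3, where 56.9% and 48.1% had one. In all 3 clones, 9 of 10 had a promoter peak against 46.5% of all genes. The exception was *Pmaip1* in clone 1. Required to cover an annotated start itself, the peaks of 7 genes did so in all 3 clones, since those of *Gdf15* in clones 1 and 3 and of *Ccng1* in clone 3 lie beside their starts. The share of all genes under this stricter rule was not computed, and the 46.5% belongs to the 1 kb window. To rank the peaks, the strongest promoter peak of each gene was given its percentile by ChIP reads among all genes with a promoter peak in the same clone. The median percentile of the pathway genes was 67.4, 58.7 and 54.9 in clones 1, 2 and 3, with a mean of 60.3 ± 6.41 (SD, n = 3 clones). All genes with a promoter peak together have a median of 50 by construction.

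**Figure D1:**
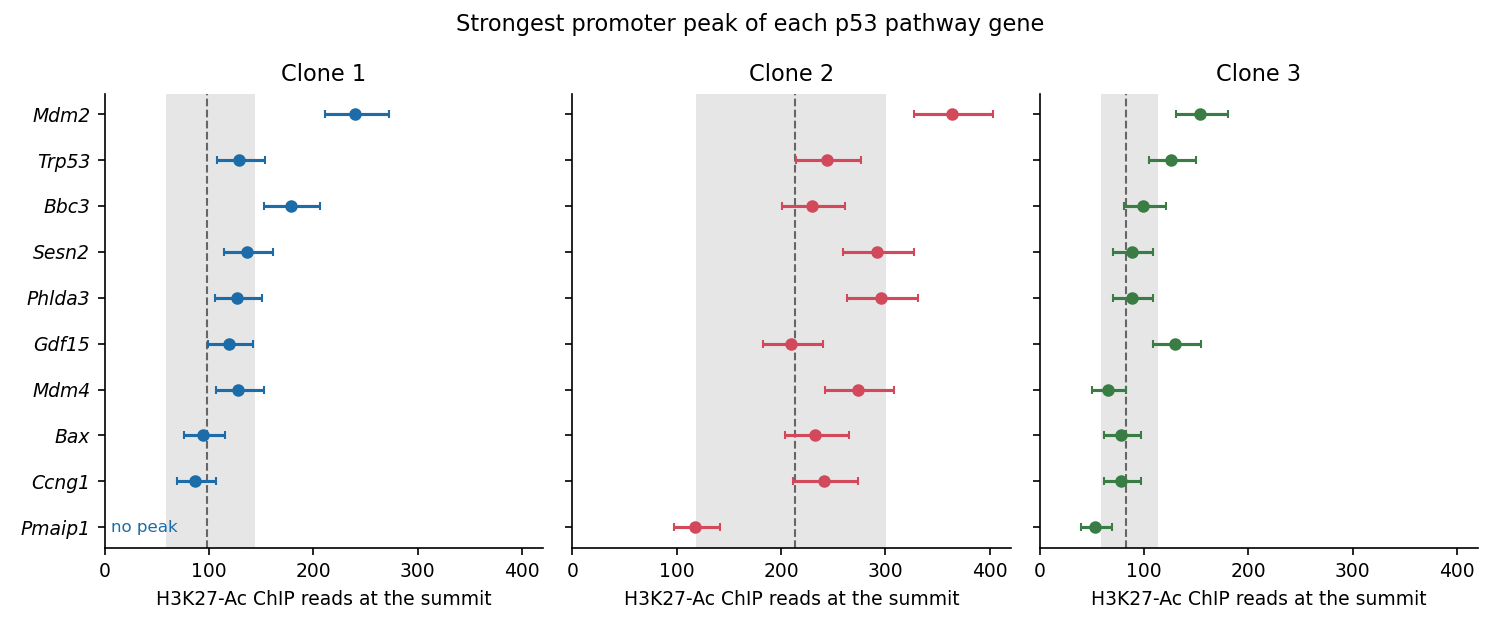
ChIP reads at the summit of the strongest promoter peak (x axis) of each gene, ordered by mean percentile, in 1 panel per clone; points are single values, bars exact Poisson 95% intervals for counting error only, the dashed line and grey band the median and the quartiles of all protein-coding genes with a promoter peak. *Mdm2* lies beyond the band in every clone, with 240, 364 and 154 reads, and *Pmaip1* has no peak in clone 1 and lies below the band in clones 2 and 3, with 118 and 53.

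**Figure D2:**
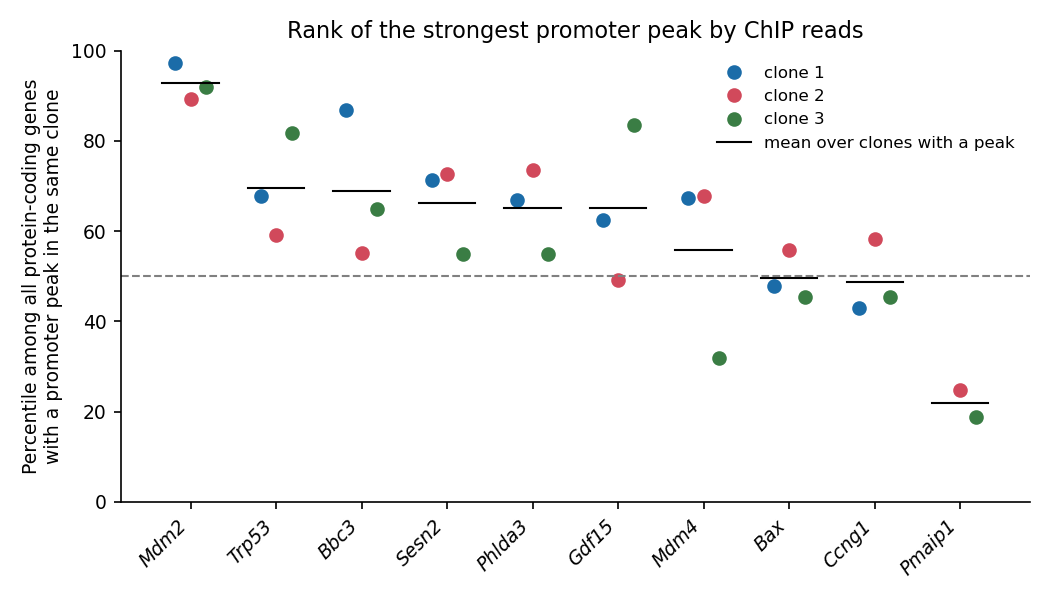
Percentile of the strongest promoter peak by ChIP reads among all protein-coding genes with a promoter peak in the same clone (y axis), for each gene (x axis); points are clones, horizontal bars the mean over clones with a peak, and the dashed line the 50th percentile. *Mdm2* holds the top and *Pmaip1* the bottom in the mean, and *Mdm4* spreads from 32.0 to 67.9.

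In the plot of percentiles by reads, *Mdm2* had the highest mean, 92.8 ± 4.02 (SD, n = 3), and its lowest clone, at 89.3, was above the highest value of every other member. By peak width its mean percentile was 71.6, below those of *Bbc3* (98.8), *Phlda3* (89.3), *Gdf15* (88.5) and *Trp53* (75.6). *Trp53* (69.6 ± 11.4), *Bbc3* (68.9 ± 16.3), *Sesn2* (66.3 ± 9.88), *Phlda3* (65.1 ± 9.48) and *Gdf15* (65.1 ± 17.4) followed, and neighbours in this order differed by less than their spread over the 3 clones. *Mdm4* (55.7 ± 20.6), *Bax* (49.7 ± 5.54) and *Ccng1* (48.8 ± 8.22) lay near the middle of all genes with a promoter peak. They did not differ from each other beyond that spread. *Pmaip1* was lowest, at 24.8 in clone 2 and 18.9 in clone 3, below the lowest value of every other member.

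*Trp53* lies at chr11:69580359-69591873 on the plus strand. Its strongest promoter peak had 129, 244 and 126 reads in clones 1, 2 and 3, which is above the median of all genes with a promoter peak in each clone (98, 213 and 83). The peak covers 3 of its 4 annotated starts in every clone, and the fourth, of a processed transcript 8336 bp downstream, has no peak within 1 kb. *Wrap53*, a gene on the opposite strand that encodes a telomerase-associated protein, starts 104 bp from the *Trp53* start, so this peak cannot be assigned to one of the pair. In clone 3 the mark upstream of the start was split off as a peak of 42 reads. A weaker peak behind the shared start, toward *Wrap53*, had 48 and 65 reads in clones 1 and 3 and 135 in clone 2, where its edge came within 933 bp of the *Trp53* start and it counts as a promoter peak. Between both starts lies an element with 3 mismatches at chr11:69580284-69580303, inside the peaks of clones 1 and 2 and between peaks in clone 3.
Trp53 upstream: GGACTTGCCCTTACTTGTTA

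*Mdm2* lies at chr10:117688875-117710758 on the minus strand and is read from more than one start. Both coding transcripts in the annotation begin at the outermost start (117710758), and 3 transcripts annotated as processed or subject to nonsense-mediated decay begin 466, 680 and 736 bp downstream, around the intron 1 stretch shown above. From textbook knowledge, the first promoter is active without p53 and the second, in intron 1, responds to p53. In each clone 1 strong promoter peak of 1710, 1595 and 1722 bp spans both, and covers 7 of the 8 annotated starts. It had 240 reads in clone 1, 364 in clone 2 and 154 in clone 3, the highest number of any member in every clone, at percentiles 97.2, 89.3 and 91.9. The summit lay 221, 199 and 179 bp downstream of the outermost start, between it and the first of the intron 1 starts. Taken apart, the window of 1 kb on each side of the outermost start was under peaks over 85.5%, 80.5% and 83.1% of its bases, and that around the start 680 bp downstream over 79.3%, 67.7% and 69.0%. These windows overlap, and with 1 summit per peak the lists do not separate the signal of the 2 promoters. Clone 1 had a further promoter peak of 22 reads downstream and clone 2 one of 16 reads upstream, both weak for their lists.

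The 2 intron 1 elements lie 644 and 681 bp downstream of the outermost start, so the second one overlaps the start at 680 bp. Each holds 3 mismatches and both are inside the promoter peak in every clone. A closer match, with 1 mismatch, lies 921 bp upstream of the outermost start in no peak of any clone. The *Mdm2* promoter was rich in CpG, with an observed-to-expected CpG ratio of 1.12 in the 300 bp around the start, at percentile 98.6 of 32851 RefSeq promoters, whose median was 0.384.

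Upstream of *Mdm2*, a region between genes, chr10:117716600-117718897, was marked in all 3 clones. The peak had 77, 71 and 103 reads at its summit, with fold enrichments of 16.8, 18.0 and 9.81, and its summit lay 6.74, 6.05 and 6.71 kb upstream of the outermost start. Set against the promoter peak of the same clone, the region reached 0.669 of the promoter peak in clone 3 (95% interval 0.516 to 0.864), 0.321 in clone 1 (0.245 to 0.416) and 0.195 in clone 2 (0.149 to 0.252). In the *Mdm2* upstream stretch shown above, a match with 1 mismatch, 6987 bp upstream of the outermost start, overlaps one with 2 mismatches, and both are inside the peak of every clone. Of all peaks in the lists, 0.713%, 0.651% and 0.847% held a match with at most 1 mismatch anywhere between their ends. These shares are over peaks of all widths, whereas the *Mdm2* upstream peaks are 2083, 2298 and 2057 bp wide. The match was also picked from a scan of the members' loci, so these shares do not measure how rare it is. A further region about 11 kb upstream had peaks in clones 1 and 3, of 26 and 69 reads.

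**Figure D3:**
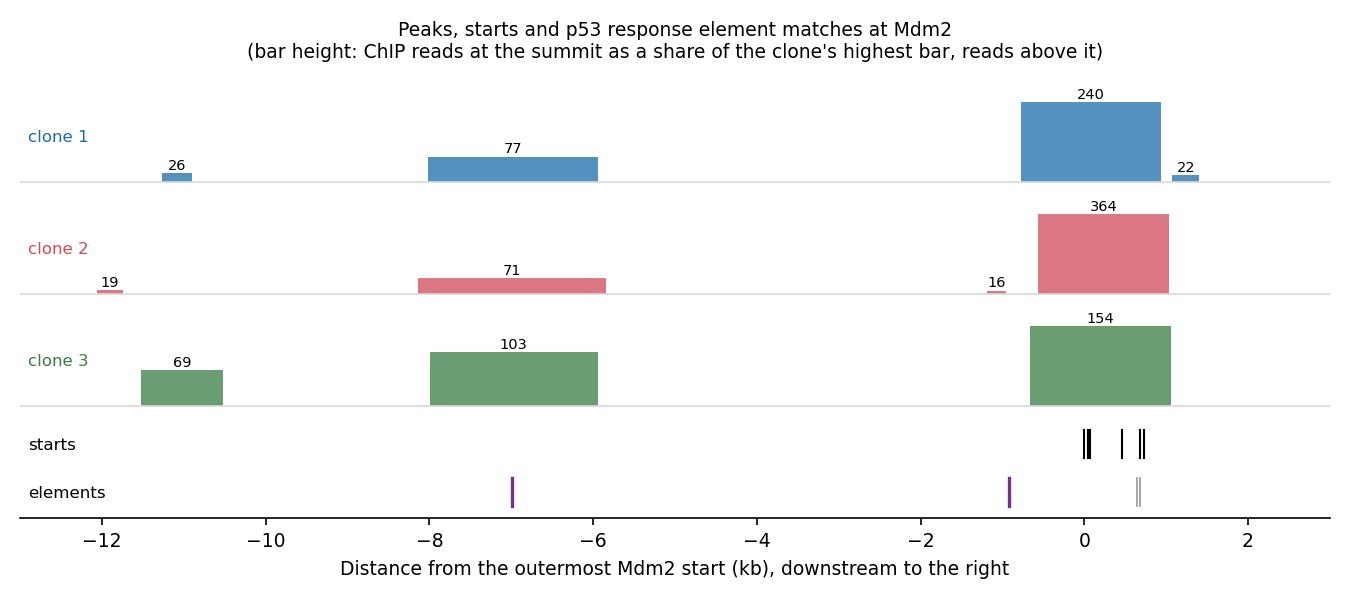
Peaks at *Mdm2* by distance from its outermost start in kb (x axis, downstream to the right), 1 track per clone; bar width is the peak, bar height its ChIP reads as a share of the clone's highest bar with the reads printed above, black ticks are annotated starts and the lowest track shows response element matches, purple with at most 1 mismatch and grey with more. The peak at the start holds 240, 364 and 154 reads, the one upstream 77, 71 and 103, and a purple match lies inside the upstream peak of each clone.

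*Mdm4*, at chr1:132959484-133030561 on the minus strand, has 13 annotated starts, and the mark did not lie at the outermost one. Its strongest promoter peak had 128, 274 and 65 reads in clones 1, 2 and 3, at percentiles 67.4, 67.9 and 32.0. In every clone this peak covered a cluster of 7 starts a little over 5 kb downstream of the outermost start, which include those of all basic coding transcripts. *Gm29257*, a processed pseudogene, starts 385 bp from the cluster. The outermost start had no peak within 1 kb, and the nearest one, a region between genes at chr1:133032670-133033982, had 33, 53 and 28 reads, the last of them close to the weakest peaks of clone 3. An intron peak with its edge within 1 kb of a processed transcript's start had 25 reads in clone 1 and 52 in clone 3, at percentiles 27.3 and 48.5 of all peaks in their lists. A match with 1 mismatch at chr1:133019441-133019460, 592 bp upstream of that transcript's start, was in no peak of any clone. Overlapping the intron peak in both clones, at chr1:133020295-133020324, are a pair of overlapping matches with 1 mismatch each.
Mdm4 intron: TGACTTGTCTGGGCTTGTCTGGCCTTGTCT

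Of the targets linked to growth arrest and stress, *Ccng1*, which encodes cyclin G1, lies at chr11:40748552-40755311 on the minus strand. Its promoter peak had 86, 241 and 78 reads, at percentiles 42.9, 58.2 and 45.3. It was thus below the median of all genes with a promoter peak in clones 1 and 3 and above it in clone 2. The summit lay 261, 249 and 263 bp downstream of the start. In clone 3 the mark was split into a peak of 78 reads that ends 20 bp short of the start and one of 41 reads upstream of it. *Ccng1* holds 2 matches with 1 mismatch each: the one shown above, 160 bp upstream of the start, is under a peak only in clone 2, and the one below, at chr11:40754936-40754955, 366 bp downstream of the start, is under the peak of every clone.
Ccng1 downstream: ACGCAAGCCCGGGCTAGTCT

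*Sesn2* encodes sestrin 2, which restrains mTORC1 signalling under stress, and lies at chr4:132492032-132510501 on the minus strand. Its promoter peak covered the single annotated start in each clone with 136, 292 and 88 reads, at percentiles 71.3, 72.6 and 54.9. *Gm12981*, an antisense gene, starts 852 bp from that start. Clone 1 had a further promoter peak of 39 reads upstream. No match to the response element was found within 1 kb of the start. Clone 2 alone had body peaks, 5 of them with 23 to 40 reads. The only shared region between genes, at chr4:132513109-132516071, had 137, 94 and 159 reads, with its summit 3.96, 3.35 and 3.99 kb upstream of the start. It had about as many reads as the promoter peak in clone 1, fewer in clone 2 and more in clone 3.

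*Phlda3*, whose product inhibits AKT at the membrane, lies at chr1:135766119-135769136 on the plus strand. A broad promoter peak of 2634, 2187 and 2053 bp covered both starts with 127, 296 and 88 reads, at percentiles 66.9, 73.6 and 54.9. An element with 3 mismatches 436 bp upstream of the first start was under the peak in every clone. Beyond the end of the gene, at chr1:135770230-135771806 and chr1:135771959-135772708, lay 2 regions marked in all 3 clones, with 78, 115 and 48 reads in the first and 33, 22 and 58 in the second. Clones 1 and 2 had more reads in the first, and clone 3 had more in the second.

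*Gdf15*, which encodes a secreted stress cytokine of the TGF-beta superfamily, lies at chr8:70629393-70632456 on the minus strand. Its strongest promoter peak had 119, 210 and 130 reads, at percentiles 62.5, 49.2 and 83.7, and clone 3 thus ranked it highest. The peak did not lie on the start but inside the gene: its edge was 212, 198 and 144 bp downstream of the nearer start, and its summit 1222, 2265 and 1269 bp from the outermost one. A start was covered only in clone 2, by a separate peak of 31 reads, and another of 46 reads lay upstream in that clone. Its promoters were poor in CpG, with observed-to-expected ratios of 0.300 and 0.0418 at the 2 starts. An element with 1 mismatch at chr8:70631966-70631985, 120 bp downstream of the nearer start, was in no peak.
Gdf15 exon: TGACTTGCCTGAACTTGCCT

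*Gdf15* is on a chromosome whose control background was raised. In clones 1, 2 and 3, the mean background under peaks of chromosome 8 was 1.35, 1.34 and 1.38 times that of the other autosomes. For chromosome 15 the ratios were 1.30, 1.29 and 1.35, and for no further autosome did the ratio exceed 1.06. The paper reports small amplicons or modest gains in skin tumours of these mice, with both chromosomes among its examples. For the cell lines used in its ChIP-seq it also reports a gain of the FVB/N chromosome 15. Copy number in the clones was not measured here, and its part in the reads and percentiles of *Gdf15* was not tested. The control behind the list of clone 2 is not given in the sources used here, and its background went with that of clone 1 (Pearson's r = 0.931 over 12081 summits within 100 bp of each other) far more than those of clones 1 and 3 (0.159 over 12605) or 2 and 3 (0.176 over 10193) went together. The values for clones 1 and 2 are therefore not taken as independent. The SDs in this text still count them as separate clones and may understate the spread. Ranked by fold enrichment, which divides by that background, the mean percentile of *Gdf15* was 35.3, and by reads 65.1. The part of the background in this difference was not tested. *Gdf15* had 12, 26 and 10 distal peaks, and *Phlda3* had nearly as many, with 12, 22 and 8. Of those of *Gdf15*, 5, 7 and 6 lay at starts of other genes and 1, 8 and 2 in their bodies. The number of distal peaks per gene was not summarised over all genes.

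Of the targets that promote apoptosis, *Bax* encodes the pore-forming effector at mitochondria and lies at chr7:45461697-45466898 on the minus strand. Its promoter peak had 94, 233 and 78 reads, at percentiles 47.9, 55.9 and 45.3, with the summit 287, 287 and 284 bp downstream of the outermost start. The peak covered 5 of 6 starts in clone 1, where it ended 38 bp short of the outermost one, and all 6 in clones 2 and 3. The *Bax* stretch shown above, whose capitals hold overlapping matches, the closest with 1 mismatch 202 bp upstream, was reached only by the wider peak of clone 2, while a match with 2 mismatches 315 bp downstream was under the peak of every clone. At the other end of the gene a peak had 151, 229 and 143 reads. It overlaps the last part of *Bax* in clones 1 and 2, and in clone 3 it ends before the gene. It lies at the starts of *Ftl1*, which encodes the ferritin light chain. Its summit lay 6223, 7653 and 6242 bp downstream of the outermost *Bax* start. In clone 2 the peak also spans the place of a separate peak of 72 and 69 reads in clones 1 and 3. The 229 reads are therefore not at the summit of the other clones.

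*Bbc3* encodes PUMA, a BH3-only protein that binds all anti-apoptotic BCL-2 proteins, and lies at chr7:16308393-16318205 on the plus strand. It carried the widest promoter peaks, 5856 bp in clone 1 and 6147 bp in clone 2, where clone 3 had 3 separate peaks of 1329, 620 and 2855 bp. The strongest had 178, 230 and 99 reads, at percentiles 86.9, 55.1 and 64.9. In clones 1 and 3 the summit lay 5415 and 5420 bp downstream of the outermost start, near the start of a transcript with a retained intron, and in clone 2 1432 bp downstream, near the start of the basic coding transcript. With starts of basic coding transcripts only, the mean percentile of *Bbc3* was 57.2 in place of 68.9. The *Bbc3* element shown above has 3 mismatches, lies 121 bp upstream of the basic coding start and was under a peak in every clone. A closer match, with 2 mismatches 309 bp downstream of the outermost start, was under a peak in clones 1 and 2 but not in clone 3.

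*Pmaip1* encodes NOXA, a BH3-only protein that binds MCL1, and lies at chr18:66458533-66465565 on the plus strand. It had no promoter peak in clone 1, 1 of 118 reads in clone 2 and 1 of 53 reads in clone 3, each covering all 3 starts. In clone 1 the nearest peak was 316687 bp away. At the depth of clone 1 the weakest listed peaks had 13 reads, so a signal below that would not be listed.

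Body peaks were few. They were found in 2 genes in clone 1 (*Trp53* and *Bax*), in 5 in clone 2 and in 1 in clone 3, against 15.1%, 27.2% and 16.5% of all protein-coding genes. The body peak of *Bax* in clone 1, and its stronger one in clone 2, lie at the starts of *Ftl1*. Only *Trp53* had a body peak in all 3 clones, which is 1 of 10 genes where 10.9% of all genes had one. Its peaks had 30 and 42 reads in clones 1 and 3, which overlap with summits 1450 and 1511 bp downstream of the outermost start. In clone 2 it had 24 reads, 4574 bp downstream, and the promoter peak of that clone reached over part of the place marked in the others. Of 11 body regions, 9 were in clone 2 alone.

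Distal peaks within 50 kb were found for 9 of 10 genes in each clone, where 58.4%, 65.9% and 59.9% of all genes had one, and for the same 9 in all 3 clones, against 55.0%. *Pmaip1* had none in any clone. Of the 12595 genes with a promoter peak in at least 1 clone, 14.5% likewise had no distal peak in any. Merged over clones, the distal peaks of the 9 genes formed 97 regions, of which 29 were marked in all 3 clones, 14 in 2 and 54 in 1. Of the 54, 49 were in clone 2 alone, with a median of 24 reads. Of the 29 shared regions, 16 lay at a start of another gene, 5 in the body of another gene and 8 between genes. The strongest distal peak of *Trp53* lay at the start of *Fxr2*, a relative of the fragile X protein, with 185, 359 and 103 reads. That of *Ccng1*, its only distal region, lay at the paired starts of *Hmmr* and *Nudcd2* with 93, 280 and 71 reads, and that of *Bbc3* at *Ccdc9* with 189, 385 and 165. For *Gdf15* it lay at *Ssbp4* in clone 1 (214 reads) and at *Lsm4* in clones 2 and 3 (421 and 173). These peaks at starts of other genes cannot be assigned to the member. Without such peaks, 6 members had a distal peak in all 3 clones, and *Trp53*, *Ccng1* and *Bax* dropped out. The share of all genes without such peaks was not computed.

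For 4 members the strongest distal peak was between genes in at least 1 clone and at another gene in clone 2. *Mdm2*, *Mdm4*, *Phlda3* and *Sesn2* had it at the starts of *Slc35e3* (128 reads), *Pik3c2b* (102), *Csrp1* (176) and *Dnajc8* (260) in clone 2. In clone 1 that of each of the 4 was the nearest shared region between genes, with 77, 33, 78 and 137 reads in the same order. Clone 3 shared this for *Mdm2*, *Mdm4* and *Sesn2*, and for *Phlda3* it was in the body of *Csrp1* (101 reads). For *Bax* it was at *Gys1* and *Ruvbl2* in clone 1 (89 reads), at *Nucb1* in clone 2 (243) and at *Ftl1* in clone 3 (143). In clone 1 the matching *Ftl1* peak, with 151 reads, overlaps the end of *Bax* and counts as a body peak. The difference between clones 1 and 3 thus follows from how that peak is classed. The *Ftl1* peak of clone 2, with 229 reads at another summit, also counts as a body peak.

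**Figure D4:**
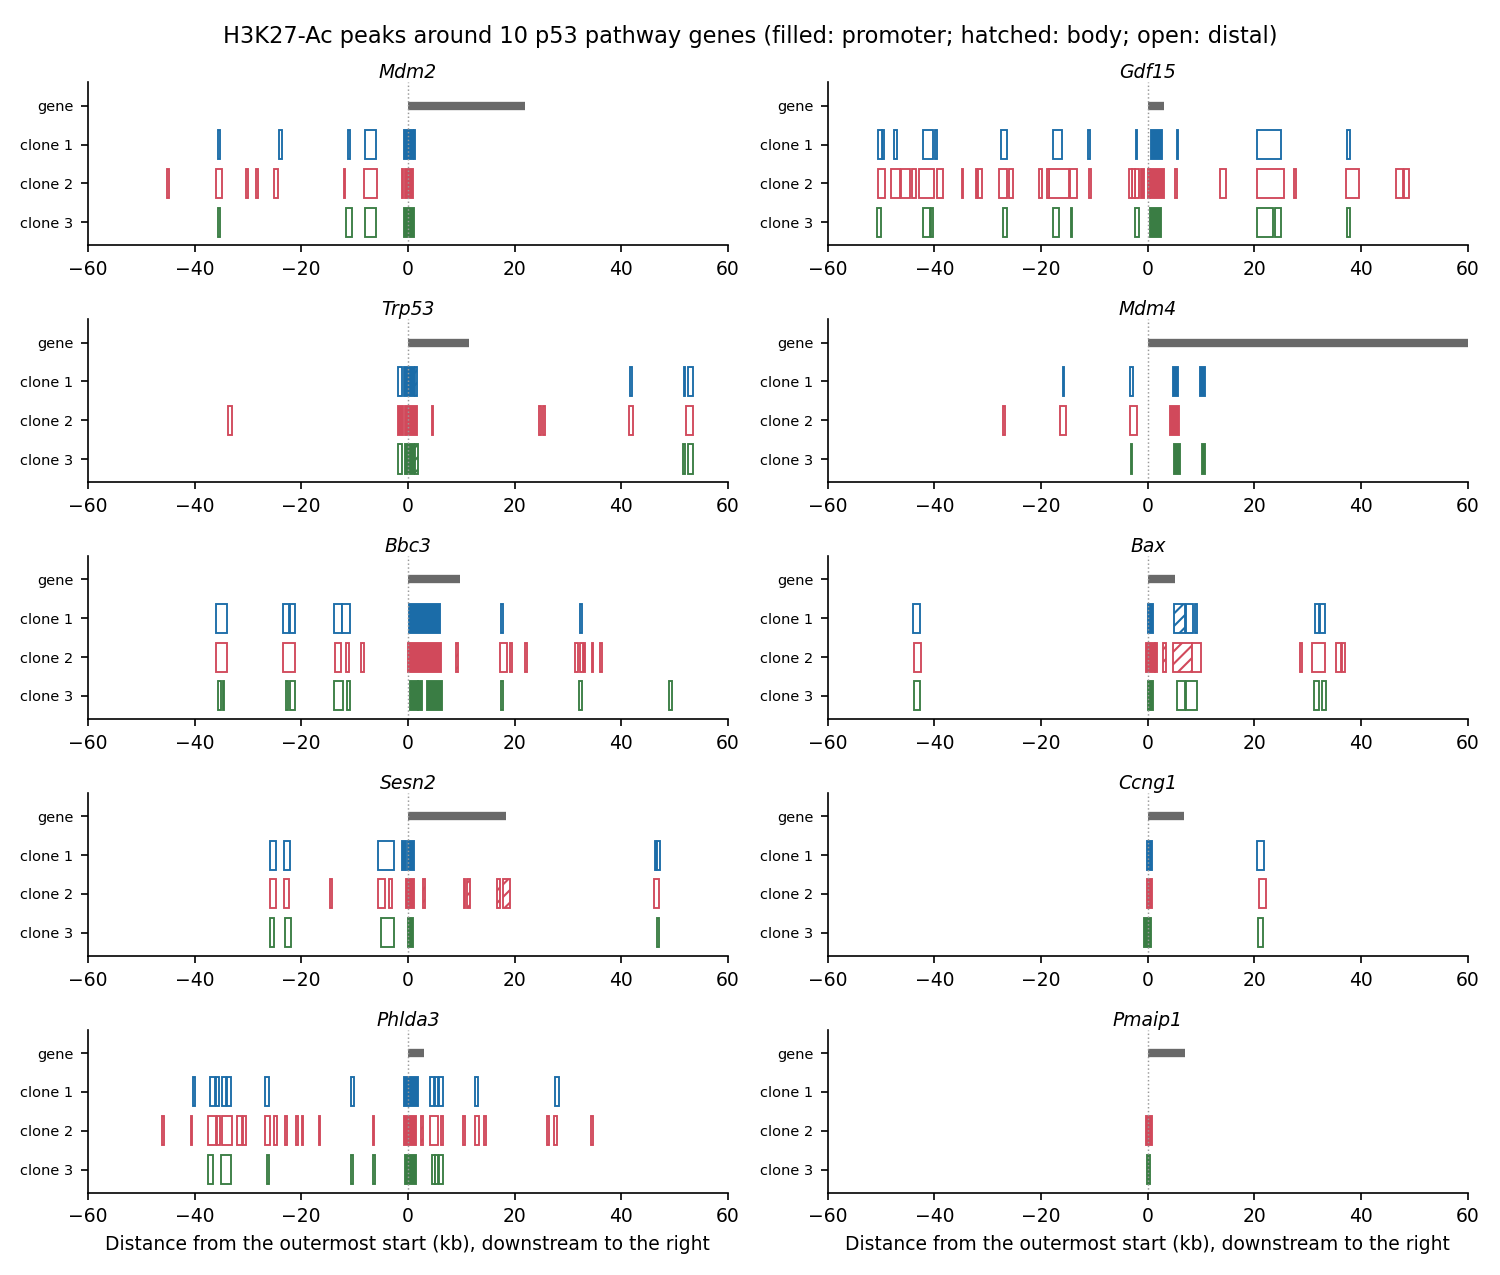
Peaks around each gene by distance from its outermost start in kb (x axis, downstream to the right), 1 row per clone under the gene (grey bar, cut at 60 kb for *Mdm4*); filled bars are promoter peaks, hatched ones body peaks and open ones distal peaks, and narrow open bars look solid at this scale. Clone 2 has the most distal peaks, 90 in all against 52 in clone 1 and 44 in clone 3, *Pmaip1* has none, and 1 distal peak of *Mdm4* in clone 2 lies beyond the right edge.

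The 8 shared regions between genes were set against the promoter peak of the same gene and clone, as a ratio of reads with an exact 95% interval that covers counting error only. Over all shared regions, median reads away from annotated starts in clones 1, 2 and 3 were 0.419, 0.259 and 0.713 of those at starts. This ratio was highest in clone 3, whose weakest listed peaks also had the most reads (25, against 13 and 12). The part of that limit in the ratio was not tested. The *Bbc3* region at chr7:16294497-16297519, with its main summit about 13 kb upstream, had 179, 229 and 164 reads, a ratio of 1.01 in clone 1 (0.813 to 1.24), 0.996 in clone 2 (0.826 to 1.20) and 1.66 in clone 3 (1.28 to 2.15). Each interval lies above the ratio of all shared regions in that clone. That ratio compares medians and its spread over genes was not measured, so an interval above it does not show that a region is unusual. The *Gdf15* region at chr8:70681665-70683211 had 85, 191 and 130 reads and ratios of 0.714, 0.910 and 1.00, again above the ratio of all regions with their intervals. It sits at the edge of the 50 kb window.

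For *Sesn2* the ratio was 1.01 (0.789 to 1.29) in clone 1, 0.322 (0.252 to 0.407) in clone 2 and 1.81 (1.38 to 2.37) in clone 3. The intervals of clones 1 and 3 lie above the ratio of all shared regions, and that of clone 2 includes it. For *Mdm2*, the intervals of clones 1 and 2 lie below it and that of clone 3 includes it. *Mdm4* had ratios of 0.258, 0.193 and 0.431, the first *Phlda3* region 0.614, 0.389 and 0.545, the second 0.260, 0.0743 and 0.659, and the nearer *Gdf15* region 0.185, 0.371 and 0.477. Of these, the intervals of the first *Phlda3* region in clones 1 and 2 and of the nearer *Gdf15* region in clone 2 lie above the ratio of all shared regions. Below it lie those of *Mdm4* and the nearer *Gdf15* region in clones 1 and 3, and of the second *Phlda3* region in clones 1 and 2. The remaining intervals include it. In the second *Phlda3* region clone 2 was furthest below the others, with 22 reads.

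**Figure D5:**
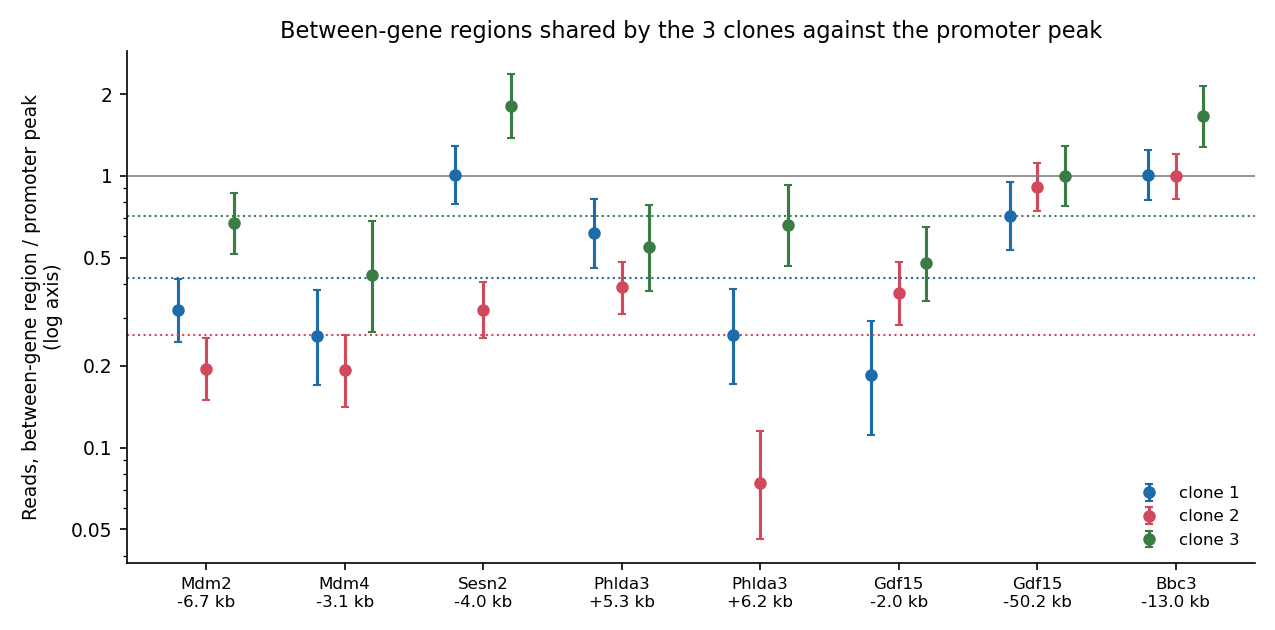
Reads of each shared region between genes divided by those of the gene's strongest promoter peak in the same clone (y axis, log scale), for 8 regions named by gene and summit distance (x axis); bars are exact 95% intervals for counting error only, dotted lines the ratio of median reads away from starts to those at starts over all shared regions of that clone, and the grey line equal reads. *Bbc3* lies at 1.01, 0.996 and 1.66 and *Sesn2* at 1.01, 0.322 and 1.81 in clones 1, 2 and 3, while *Mdm2* stays below equal reads.

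In the RefSeq promoter sequences, 300 bases around each start, a response element match was found for 5 of the 9 members present there (*Trp53*, *Mdm4*, *Ccng1*, *Bax* and *Bbc3*), where 8.27% of 27025 genes had one. With at most 2 mismatches, *Ccng1* and *Bax* kept a match, against 1.68% of genes. With up to 13 bases between the copies the same 5 had one, against 32.1%. These are matches of letters, not sites shown to be bound. The 300 bp around the summits of all peaks held a match in 8.19%, 8.60% and 8.29% of peaks of clones 1, 2 and 3. From 50 kb before to 50 kb after the 9 genes there were 18 matches with at most 1 mismatch, overlapping ones counted apart, of which 2 (*Mdm2* upstream and *Ccng1* downstream) were under a peak of every clone and 6 under a peak of at least 1. The share of such matches under peaks around other genes was not measured. Over their 13 RefSeq promoters, the members had a median observed-to-expected CpG ratio of 0.687 against 0.384 for all promoters.

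Other genes of the pathway were described by the same promoter peaks. Of 26 further p53 target genes, 23, 26 and 22 had a promoter peak in clones 1, 2 and 3 and 22 in all 3, where the shares of all protein-coding genes were 49.8%, 56.9%, 48.1% and 46.5%. Their median percentiles were 63.0, 59.3 and 51.3. The highest mean percentiles were those of *Plk3* (81.6), a stress-activated kinase, *Trp53inp1* (80.8), a cofactor of p53 in apoptosis, and *Ppm1d* (77.8), which encodes the phosphatase WIP1. The lowest were those of *Pidd1* (10.6), part of the PIDDosome, *Fas* (12.5), a death receptor, and *Dcxr* (17.9), a carbonyl reductase, each with a promoter peak in clone 2 alone. *Tigar*, which lowers glycolytic flux, had one in clones 1 and 2. *Cdkn1a*, which encodes the cell cycle inhibitor p21 and is named here after its values were seen, had 153, 219 and 82 reads, at percentiles 78.5, 51.8 and 49.4.

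Of 15 regulators and relatives of p53, 13 had a promoter peak in every clone, against 46.5% of all protein-coding genes, with median percentiles of 71.3, 71.0 and 64.9. The 2 without one in any clone were the paralogues *Trp63*, a master regulator of stratified epithelium, and *Trp73*. *Ep300* (mean percentile 99.1) and *Kat5* (96.8), acetyltransferases that act on p53, and *Usp7* (88.3), which removes ubiquitin from p53 and *Mdm2*, ranked highest, and the kinases *Chek2* (28.8) and *Chek1* (32.1) and the repair factor *Trp53bp1* (46.1) lowest. Of 11 other BCL-2 family genes, 9 had a promoter peak in every clone, again against 46.5% of all genes, with median percentiles of 55.5, 60.7 and 27.7. *Mcl1* (97.4), the anti-apoptotic partner of NOXA, *Bcl2l1* (74.3) and *Bcl2* (59.5), also anti-apoptotic, ranked highest, and the BH3-only genes *Bmf* (19.5) and *Bcl2l11* (41.6) with *Bok* (25.2) lowest. The BH3-only genes *Bik* and *Hrk* had no promoter peak in any clone.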

How the data were processed

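Per the submitters' processing notes, the authors used Bowtie2 for mapping (single-end, GRCm38) and MACS2 2.1.1 for peak calling, per clone and against a control. The deposited lists give positions, fold enrichment at the summit (a ratio of ChIP pileup to local background, each plus 1) and −log10 p and −log10 q values as the authors' caller wrote them; replicates of clone 3 were pooled, and the control libraries are 3 IgG libraries of clones 1 and 3. Which control the list of clone 2 was called against is not given in the sources used here, which bears on its fold enrichments and background. Lists were used as deposited, on chromosomes 1 to 19, X and Y, which left out 5, 21 and 3 peaks.

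Summit reads and background were recovered from the fold enrichment with the −log10 p, which are a ratio and a Poisson tail of the same whole reads; 100% of peaks had a solution within a tolerance of 0.004 read, and the step was tested on simulated data. Library totals assume the caller's default genome size. Starts came from GENCODE M21 (all transcripts), coordinates count from 1, and sequences from RefSeq; 9 of the 10 genes were in the promoter table and *Pmaip1* was not. Percentiles, overlaps of at least 1 bp, Clopper-Pearson and Poisson intervals and motif scans were computed in Python 3.11.15 (scipy 1.17.1, numpy 2.4.6, pandas 2.3.3, with figures from matplotlib 3.10.9). Reads without molecular identifiers are not independent molecules, so intervals cover counting error only.

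There is 1 condition, so no test between groups was made; counts of pathway genes stand beside the share of all protein-coding genes, and the spread is the SD over clones, whose number limits precision. The genes and lists were chosen with earlier results of these data known, and the sequences shown and the ratio of distal to promoter reads were chosen after the values were seen. Named were all members, genes starting within 1 kb of a member's start, genes at a member's strongest distal peak, and of each list the 3 highest and 3 lowest and those without a promoter peak in a clone; markers are the listed ones. As alternatives, peaks were limited to a −log10 q of 5 or more, and the others were equal peak numbers, other starts, windows, overlaps and measures, and leaving out each clone. Allele-specific reads were not analysed here.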

Additional observations from a re-analysis of the deposited data

How the results depend on the processing

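Of 80 alternatives to 9 summary counts and ranks, 74 stayed within 1.5 times the reported count or within 1 SD over clones. The count of genes with a body peak in all 3 clones was 1 and became 0 with the same number of peaks per clone. The 9 genes with a distal peak in all 3 clones became 6 without peaks at starts of other genes. This fall is at the limit of 1.5 times and was counted as staying. The 29 shared distal regions became 14 within 25 kb, 52 within 100 kb and 13 without peaks at starts of other genes. The 5 genes with a response element in the promoter sequence became 2 with at most 2 mismatches. Leaving out each clone in turn gave 9 to 10 genes with a promoter peak in all remaining clones, 1 to 2 with a body peak (2 without clone 3, where *Bax* joins *Trp53* by the peak at the *Ftl1* starts), 9 to 9 with a distal peak, 32 to 38 shared distal regions, a median percentile of 56.8 to 63.0, 22 to 23 further targets, 13 to 13 regulators and 9 to 9 BCL-2 family genes. A count of genes marked in every clone can only stay or rise when a clone is left out. Such counts are among the 80 alternatives, and they do not show that a count is stable. Requiring the peak to cover a start of a basic coding transcript, an alternative chosen after seeing the data, gave 7 members, 15 further targets, 11 regulators and 6 BCL-2 family genes. The share of all protein-coding genes under that rule was not computed. For the mean percentile of single genes, 12 of 50 alternatives moved it by more than 1 SD, most of them with peak width or fold enrichment in place of reads; for *Gdf15* fold enrichment gave 35.3 and peak width 88.5, and for *Mdm2* peak width gave 71.6, which ends its first place. No paired analysis was possible because the lists are of 1 condition. Sites weaker than about 13, 12 and 25 reads in clones 1, 2 and 3 are below what the lists can show.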
